A study of Homo sapiens with 4 samples.

Results

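Complex I (NADH:ubiquinone oxidoreductase) is the entry point of electrons from NADH into the mitochondrial electron transport chain. The nuclear genes of its subunits were taken from a table of gene counts in 4 prostate cancer cell lines. Members were the genes named NDUFA, NDUFB, NDUFC, NDUFS or NDUFV followed by a number, together with NDUFAB1. The readthrough gene NDUFC2-KCTD14 was left out. The rule found 38 of the 22637 genes in the table. Of these, 37 encode complex I subunits, and NDUFA4, which carries the family name but is a component of cytochrome c oxidase (complex IV), is described apart.

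The human prostate adenocarcinoma line LNCaP responds to androgen, and its descendant C4-2B is castration resistant. LN-OlapR and 2B-OlapR were selected from LNCaP and C4-2B, respectively, by long exposure to increasing doses of olaparib, an inhibitor of the PARP enzymes of DNA repair. All 4 lines carry the label untreated, and the deposited description states that they were plated without the selecting drug before RNA was isolated. One RNA library was sequenced per cell line, so a resistant line stands for 1 selection, and whether it is a single clone is not given in the sources used here. The difference of 2B-OlapR from C4-2B is called the 2B pair below, and that of LN-OlapR from LNCaP the LN pair. With 1 library per line there is no replicate check on a difference between 2 lines, and none of these was tested. Both resistant lines were tested against both parental lines in a single fit, which is given after the pairs. The 95% intervals below are exact intervals from the counts of the 2 libraries compared, and they cover counting error only.

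Complex I is L-shaped. Its peripheral arm reaches into the mitochondrial matrix and holds the N module, which oxidizes NADH, and the Q module, which passes the electrons through iron–sulfur clusters to ubiquinone. Its membrane arm pumps protons and contains 7 core proteins encoded in mitochondrial DNA, surrounded by nuclear-encoded accessory subunits. By textbook position, 11 of the members were placed in the N module, 6 in the Q module, 9 in the proximal membrane arm and 11 in the distal membrane arm. The nuclear core subunits, which carry out electron transfer, are 7 of the members, and the other 30 are accessory.

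The libraries held from 19950537 to 26394267 counts. Values are given as normalized CPM, which are counts scaled to a common library size with the TMM method, and differences as log2 ratios of these. A gene was analyzed in a comparison if its mean was at least 1 normalized CPM over both libraries. All 8 genes of a prostate luminal list were listed in the table, and their summed level was 2808 normalized CPM in LNCaP against 6194 in LN-OlapR, and 4739 in C4-2B against 4223 in 2B-OlapR. The LNCaP library stood apart in KLK3, the gene of prostate-specific antigen, with 53.1 normalized CPM against 1870 to 2685 in the other libraries. Of 9 markers of basal, stromal, immune, endothelial and neuroendocrine cells, 4 were listed, and TP63, KRT5, PTPRC, PECAM1 and CHGA were not. The sum of the 4 was 19.0 normalized CPM in LNCaP against 12.0 in LN-OlapR, and 19.2 in C4-2B against 10.2 in 2B-OlapR. It was lower in each resistant library than in its parental library, mostly through the collagen gene COL1A1 (15.2, 8.23, 16.1 and 7.14 in the same order), and the part of this in the ratios below was not tested.

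Every complex I subunit gene was detected well above the filter in every library. The lowest count was 633 for NDUFS4 in C4-2B (exact Poisson interval 585 to 684) and the highest was 8879 for NDUFB4 in LNCaP. The 37 genes together took 0.389% of all counts in LNCaP (95% Wilson interval 0.387 to 0.392), 0.414% in LN-OlapR (0.412 to 0.417), 0.423% in C4-2B (0.420 to 0.426) and 0.479% in 2B-OlapR (0.476 to 0.482). Each resistant library thus held a larger share than its parental library, by more than the counting error. The share in C4-2B was also larger than those in LNCaP and LN-OlapR, with separate intervals. More complex I mRNA per cell and less of other mRNA cannot be told apart in such shares.

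The level of a single member differed little between the 4 libraries. The highest library exceeded the lowest by 1.12-fold for NDUFV3 and by 2.05-fold for NDUFS7, with a median of 1.49-fold over the 37 genes. 2B-OlapR was the highest library for 21 members, LN-OlapR for 13, C4-2B for 2 and LNCaP for 1. LNCaP was the lowest for 14 members, C4-2B for 13, LN-OlapR for 6 and 2B-OlapR for 4. The highest and lowest library were not counted over all genes, so whether this order is particular to the members was not tested.

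**Figure D1:**
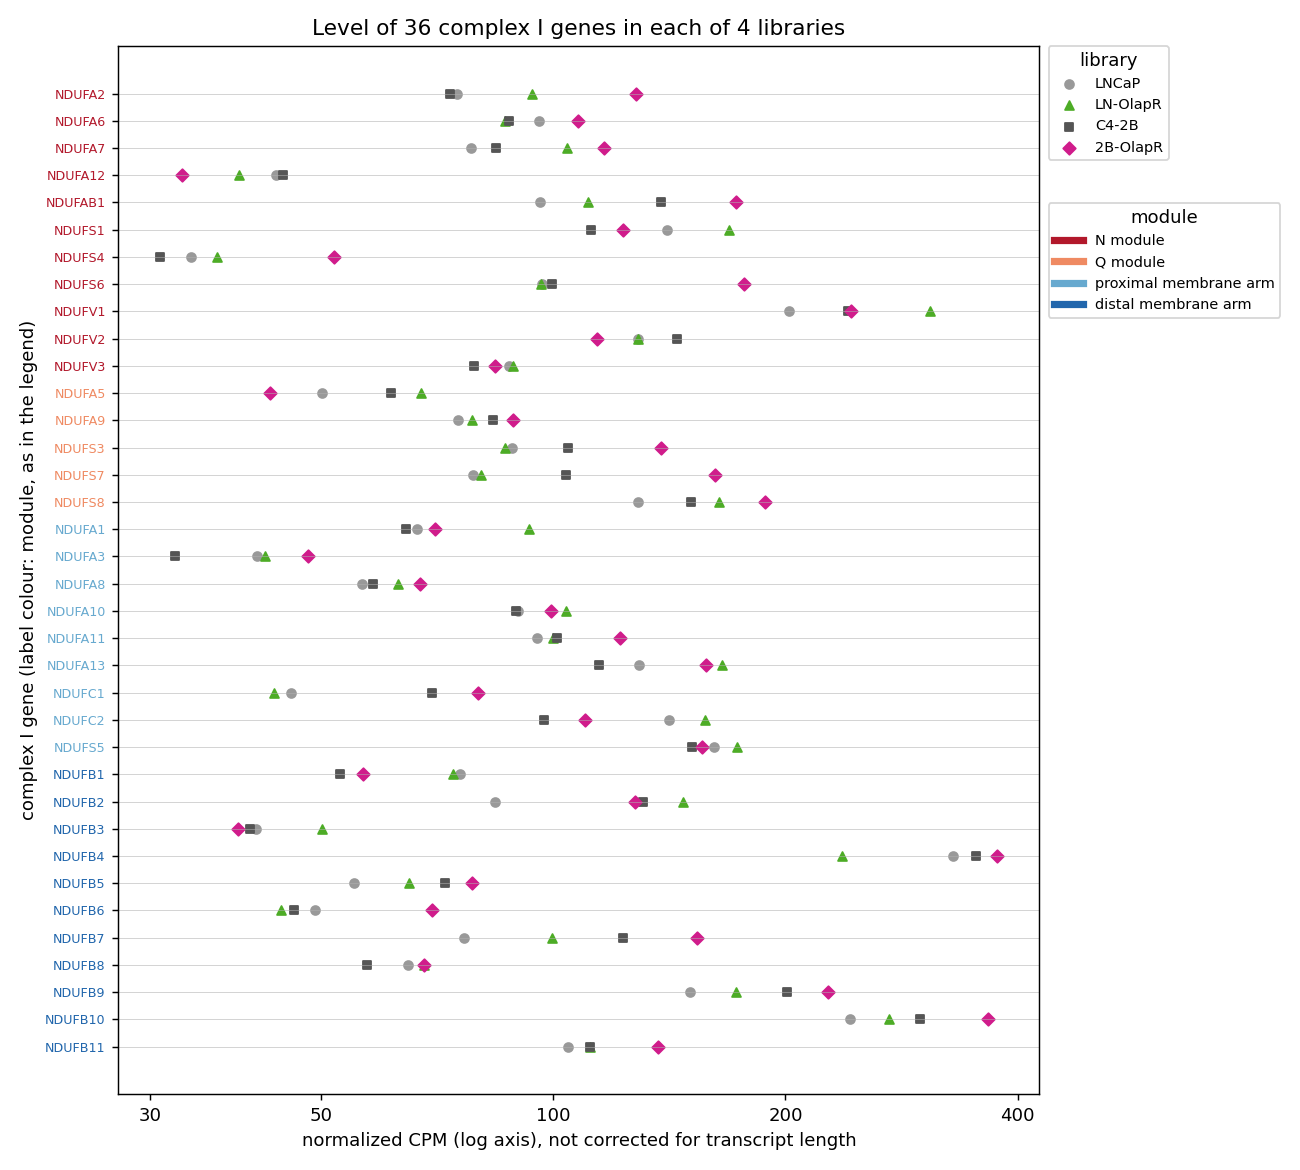
Normalized CPM of 36 complex I genes on a log axis, with 1 point per library and genes grouped by module. Levels run from 30.9 for NDUFS4 in C4-2B to 377 for NDUFB4 in 2B-OlapR, and 2B-OlapR is the highest point for 21 of the genes. Values are not corrected for transcript length, so only points in the same row should be compared.

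Levels of different genes were compared per length, as normalized CPM per kilobase of the longest annotated transcript, averaged over the 4 libraries. NDUFB10 had the highest level with 308, followed by NDUFS5 with 293 and NDUFB4 with 227. Per kilobase, NDUFB10 had 253 in LNCaP against 284 in LN-OlapR, and 312 in C4-2B against 383 in 2B-OlapR, and NDUFS5 had 295, 316, 276 and 285 in the same order. NDUFB10 and NDUFS5 encode small subunits with paired cysteine motifs that face the intermembrane space, and NDUFB4 is a membrane arm subunit. The lowest levels were 9.75 for NDUFA9, which encodes a nucleotide-binding subunit, 9.91 for NDUFA5 of the Q module and 11.5 for the core subunit NDUFS1. NDUFA9 had 9.01, 9.40, 9.99 and 10.6 per kilobase in the same order. These values depend on the annotation. With the length of all exons of a gene joined, the same genes had 276 (NDUFB10), 293 (NDUFS5), 172 (NDUFB4), 7.85 (NDUFA9), 5.64 (NDUFA5) and 11.1 (NDUFS1), and NDUFS5 came first. The longest annotated transcript of NDUFS1 has 11819 bases, and which of its forms was expressed was not measured.

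In the N module, 3 core subunits receive the electrons of NADH. NDUFV1 binds NADH and the flavin cofactor, and its level was 202 normalized CPM in LNCaP against 308 in LN-OlapR, and 241 in C4-2B against 243 in 2B-OlapR. NDUFV2 carries an iron–sulfur cluster next to the flavin and had 129, 129, 145 and 114 in the same order. NDUFS1, the largest subunit, holds further iron–sulfur clusters and had 140, 169, 112 and 123. NDUFV1 was thus highest in LN-OlapR and nearly level between C4-2B and 2B-OlapR, NDUFV2 was lowest in 2B-OlapR, and NDUFS1 was lower in both lines of the C4-2B background than in both lines of the LNCaP background.

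Sequences of some members are shared with pseudogenes, and the counts of these members are therefore uncertain. Among the 38 members, 21 had estimates that were not whole numbers, by more than 0.05 counts, in at least 1 library. The source of these fractions was not tested. A pseudogene row was listed for 7 members, and other members without such a row had fractions as well. NDUFV2P1, a processed copy of NDUFV2 on chromosome 19 (chr19:53223973-53224879, minus strand), had 1566 counts in LNCaP against 1289 in LN-OlapR, and 1427 in C4-2B against 1006 in 2B-OlapR, which is 45.2%, 42.9%, 48.1% and 42.6% of the count of NDUFV2. Over 692 aligned coding bases, 12 differed, an identity of 98.3%, and the longest identical run was 243 bases. Below, 120 coding bases near the end of NDUFV2 (positions 623 to 742 of its longest annotated coding sequence) are set beside the copy, with the 4 mismatched bases in capitals. They show how few bases separate a read of one from a read of the other.
NDUFV2: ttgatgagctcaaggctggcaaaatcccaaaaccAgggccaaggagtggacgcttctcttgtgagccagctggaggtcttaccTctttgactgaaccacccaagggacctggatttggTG
NDUFV2P1: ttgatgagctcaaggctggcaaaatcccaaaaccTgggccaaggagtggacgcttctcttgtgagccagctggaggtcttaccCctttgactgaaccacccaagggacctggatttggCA

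The direction of NDUFV2 did not depend on how these counts were divided. NDUFV2P1 had a log2 ratio of -0.52 (-0.64 to -0.41) in the 2B pair, and NDUFV2 with the counts of NDUFV2P1 added had -0.40. The pseudogene rows of the other complex I genes were small beside their member. NDUFA5P11 had 49 counts in LNCaP against 52 in LN-OlapR, and 36 in C4-2B against 20 in 2B-OlapR, or 2.25% to 3.63% of the count of NDUFA5. NDUFB4P12 had 126, 63, 114 and 104 counts in the same order, or 1.14% to 1.58% of NDUFB4. NDUFB9P2 had 21, 41, 42 and 39 counts and reached 1.02% of NDUFB9. Of the 38 members, 25 overlap another annotated gene, 17 on the same strand and 21 on the opposite strand, and whether strand was used in counting is not given in the sources used here.

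Core subunits of the Q module form the path to ubiquinone. NDUFS7 carries the last iron–sulfur cluster of the chain and had 78.8 normalized CPM in LNCaP against 80.7 in LN-OlapR, and 104 in C4-2B against 162 in 2B-OlapR. NDUFS8, which binds a pair of iron–sulfur clusters, had 129, 164, 151 and 188 in the same order. NDUFS3 had 88.4, 86.6, 104 and 138. NDUFS3, NDUFS7 and NDUFS8 were each highest in 2B-OlapR.

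The first question of the design was how 2B-OlapR differs from its parental line C4-2B. Of the 37 complex I subunit genes, 32 were higher in 2B-OlapR, against 50.0% of all 15527 genes analyzed, and the median log2 ratio was 0.20 (quartiles 0.09 and 0.32), against -0.00 over all genes. The counting interval lay above 0 for 26 genes, below 0 for 3 and included 0 for 8. Such intervals were not counted over all genes in any comparison. The members have high counts, so even small ratios can exceed the counting error. The differences were small. At least 1.2-fold higher were 16 members (26.2% of all genes) and at least 1.2-fold lower were 3 (28.6%). At least 1.5-fold higher were 5 members (10.7% of all genes), at least 1.5-fold lower were 0 (13.5%), and none was 2-fold apart in either direction (10.1%).

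The ratios of peripheral arm genes were spread more widely in the 2B pair than those of membrane arm genes. The 11 genes of the N module had a median log2 ratio of 0.30 with an SD of 0.43 among genes, and the 6 of the Q module 0.20 with an SD of 0.40. The 9 genes of the proximal membrane arm had a median of 0.20 with an SD of 0.17, and the 11 of the distal membrane arm 0.18 with an SD of 0.18. Several accessory subunits lie near a boundary between modules, and their assignment can differ. Without NDUFA6, NDUFA7, NDUFA9, NDUFA12 and NDUFAB1 the medians were 0.14 for the N module and 0.32 for the Q module, so the order of these modules rests on how the subunits are assigned. The 3 highest and the 3 lowest genes all belonged to the peripheral arm. In the proximal arm 9 of 9 genes were higher in 2B-OlapR, in the distal arm 9 of 11, in the N module 9 of 11 and in the Q module 5 of 6. NDUFB2 and NDUFB3 were the members of the membrane arm with ratios below 0, at -0.03 (-0.11 to 0.05) and -0.05 (-0.19 to 0.09). The wider spread of the peripheral arm did not recur in the LN pair, where its SD among genes was 0.22, beside 0.26 in the membrane arm.

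The highest ratio of 2B-OlapR to C4-2B was that of NDUFS6 (ENSG00000145494.12), a zinc-binding subunit that joins late in the assembly of the N module. Its level was 96.7 normalized CPM in LNCaP against 96.5 in LN-OlapR, and 99.7 in C4-2B against 177 in 2B-OlapR, a log2 ratio of 0.82 (0.75 to 0.90) in the 2B pair. NDUFA2 (ENSG00000131495.9), a subunit with a thioredoxin fold, followed with 75.0, 93.8, 73.4 and 128, a log2 ratio of 0.80 (0.71 to 0.90). NDUFS4 (ENSG00000164258.12), an accessory subunit that stabilizes the N module on the complex, had 33.9, 36.6, 30.9 and 51.9, a log2 ratio of 0.75 (0.60 to 0.89). For all 3 genes the 2B-OlapR library stood above the other libraries, which for NDUFS6 lay within 99.7 and 96.5.

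The other members at least 1.5-fold higher in 2B-OlapR were NDUFS7 at 1.56-fold and NDUFB6, a distal membrane arm subunit, at 1.51-fold. NDUFB6 had 49.2 normalized CPM in LNCaP against 44.4 in LN-OlapR, and 46.2 in C4-2B against 69.6 in 2B-OlapR. NDUFA3, a small single-helix subunit of the proximal arm, came next with 1.49-fold. Thus the upper end of the 2B comparison held genes of all modules, while its first places were taken by N module accessory genes.

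Short stretches around matches to promoter motifs are shown for members at the upper and the lower end of the comparisons, as genes of the respiratory chain are known to be bound by NRF1, YY1 and ETS factors. RefSeq promoters of GRCh38.p14, from 250 bases before to 50 after the transcript start, were matched by symbol for 32 of the 37 members and searched on both strands. Capitals mark the matched letters, which are GCATGCGC for an NRF1 half-site, AAGATGGCG for YY1 and CCGGAAGT for ETS. Each stretch is written 5′ to 3′ on the strand of the gene. NDUFS6 and NDUFS4 are 2 of the 3 highest genes of the 2B pair, and the other, NDUFA2, holds none of these letters. NDUFS7 is the member that was 2-fold apart between the resistant lines, and NDUFA7 and NDUFA13 were higher in both pairs. NDUFB4 and NDUFA6 are among the 3 lowest genes of the LN pair.
NDUFS6, chr5:1801346-1801384, plus strand: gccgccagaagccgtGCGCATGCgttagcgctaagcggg
NDUFS4, chr5:53560645-53560668, plus strand: gcgtttgcctgcagcAAGATGGCG
NDUFS7, chr19:1383819-1383936, plus strand: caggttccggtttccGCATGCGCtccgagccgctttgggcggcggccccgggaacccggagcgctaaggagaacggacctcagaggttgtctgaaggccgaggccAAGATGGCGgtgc
NDUFA7, chr19:8321346-8321376, minus strand: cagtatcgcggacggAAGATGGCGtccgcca
NDUFA13, chr19:19516200-19516238, plus strand: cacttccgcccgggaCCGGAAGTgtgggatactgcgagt
NDUFB4, chr3:120596162-120596202, plus strand: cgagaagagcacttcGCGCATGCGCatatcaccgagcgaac
NDUFA6, chr22:42090915-42090953, minus strand: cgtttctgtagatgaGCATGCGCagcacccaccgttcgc

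In NDUFS6 the match is on the opposite strand and therefore reads GCGCATGC, and NDUFB4 has overlapping matches on both strands. NDUFS7 and NDUFA6 each hold both an NRF1 half-site and a YY1 match, that of YY1 in NDUFA6 lying outside the stretch shown. The NRF1 half-site was found in 5 of 32 members (15.6%), against 5.24% of 12864 promoters in the table. YY1 letters were found in 5 members (15.6%), against 3.47%, and ETS letters in 2 (6.25%), against 7.92%. At least one of the 3 was present in 10 members (31.2%), against 15.4% of all promoters. The ERR motif TCAAGGTCA was in 0 members (0.202% of all promoters), the letters CCAAT in 8 (25%, against 36.2%) and TATAAA in 3 (9.38%, against 6.30%). Since an NRF1 half-site nearly reads the same on both strands, 1 stretch can hold overlapping matches. In the LN pair the letters of the 3 motifs occurred in members with ratios above 0 (NDUFA7, NDUFA13) and below 0 (NDUFB4, NDUFA6). NDUFA5 and NDUFA12, among the 3 lowest members of the 2B pair, held none of these letters. Of the 2 members with both an NRF1 half-site and a YY1 match, NDUFS7 had a fold of 1.56 (2B pair) and 1.02 (LN pair), and NDUFA6 of 1.23 and 0.90.

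The lowest ratio of the 2B pair was that of NDUFA5 (ENSG00000128609.16), an accessory subunit of the Q module, with 50.2 normalized CPM in LNCaP against 67.4 in LN-OlapR, and 61.7 in C4-2B against 42.9 in 2B-OlapR, a log2 ratio of -0.52 (-0.65 to -0.40). NDUFA12, which holds the place where the N module attaches, had 43.7, 39.1, 44.6 and 33.1, a log2 ratio of -0.43 (-0.58 to -0.29). NDUFV2 had a log2 ratio of -0.34 (-0.42 to -0.27). These 3 genes had their lowest level of all libraries in 2B-OlapR. The order across the N module therefore ran from 0.74 of the C4-2B level for NDUFA12, and 0.79 for the core subunit NDUFV2, to 1.77 for NDUFS6.

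The same question was asked of LN-OlapR and LNCaP. Here 28 of the 37 members were higher in LN-OlapR, against 49.6% of all 15373 genes analyzed, and the median log2 ratio was 0.15 (quartiles 0.02 and 0.32). Intervals lay above 0 for 21 genes, below 0 for 4 and included 0 for 12. With counts scaled by library totals alone, 22 members were higher and the median was 0.07, so the size of this difference depended on the scaling. At least 1.2-fold higher were 12 members (24.8% of all genes) and at least 1.2-fold lower was 1 (25.6%). At least 1.5-fold higher were 2 (10.6%), and none was 2-fold apart (9.46%). Module medians were 0.11 for the N module, 0.21 for the Q module, 0.15 for the proximal and 0.17 for the distal membrane arm. By library totals alone these were 0.03, 0.12, 0.07 and 0.08, and with the same boundary subunits left out the Q module had 0.35.

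NDUFB2, a small membrane arm subunit, had the highest ratio of the LN pair. Its level was 84.0 normalized CPM in LNCaP against 147 in LN-OlapR, and 131 in C4-2B against 128 in 2B-OlapR, a log2 ratio of 0.81 (0.73 to 0.89) between LN-OlapR and LNCaP. The LNCaP library was the one that stood apart for this gene. NDUFV1 was next with a log2 ratio of 0.61 (0.55 to 0.66), and NDUFA1, a membrane arm subunit encoded on the X chromosome, had 66.6, 93.0, 64.4 and 70.2, a log2 ratio of 0.48 (0.39 to 0.57). For NDUFV1 and NDUFA1 it was LN-OlapR that stood above the other libraries.

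At the lower end of the LN pair, NDUFB4 had 330 normalized CPM in LNCaP against 237 in LN-OlapR, and 353 in C4-2B against 377 in 2B-OlapR, a log2 ratio of -0.48 (-0.53 to -0.43). It was the only member at least 1.2-fold lower in LN-OlapR. NDUFA12 followed at -0.16 (-0.29 to -0.03) and NDUFA6, an LYR-motif subunit that binds the acyl carrier protein, at -0.15 (-0.23 to -0.06). NDUFA6 had 95.8, 86.5, 87.6 and 108 normalized CPM. NDUFB6, at -0.15 (-0.27 to -0.03), was the other member whose interval lay below 0.

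**Figure D2:**
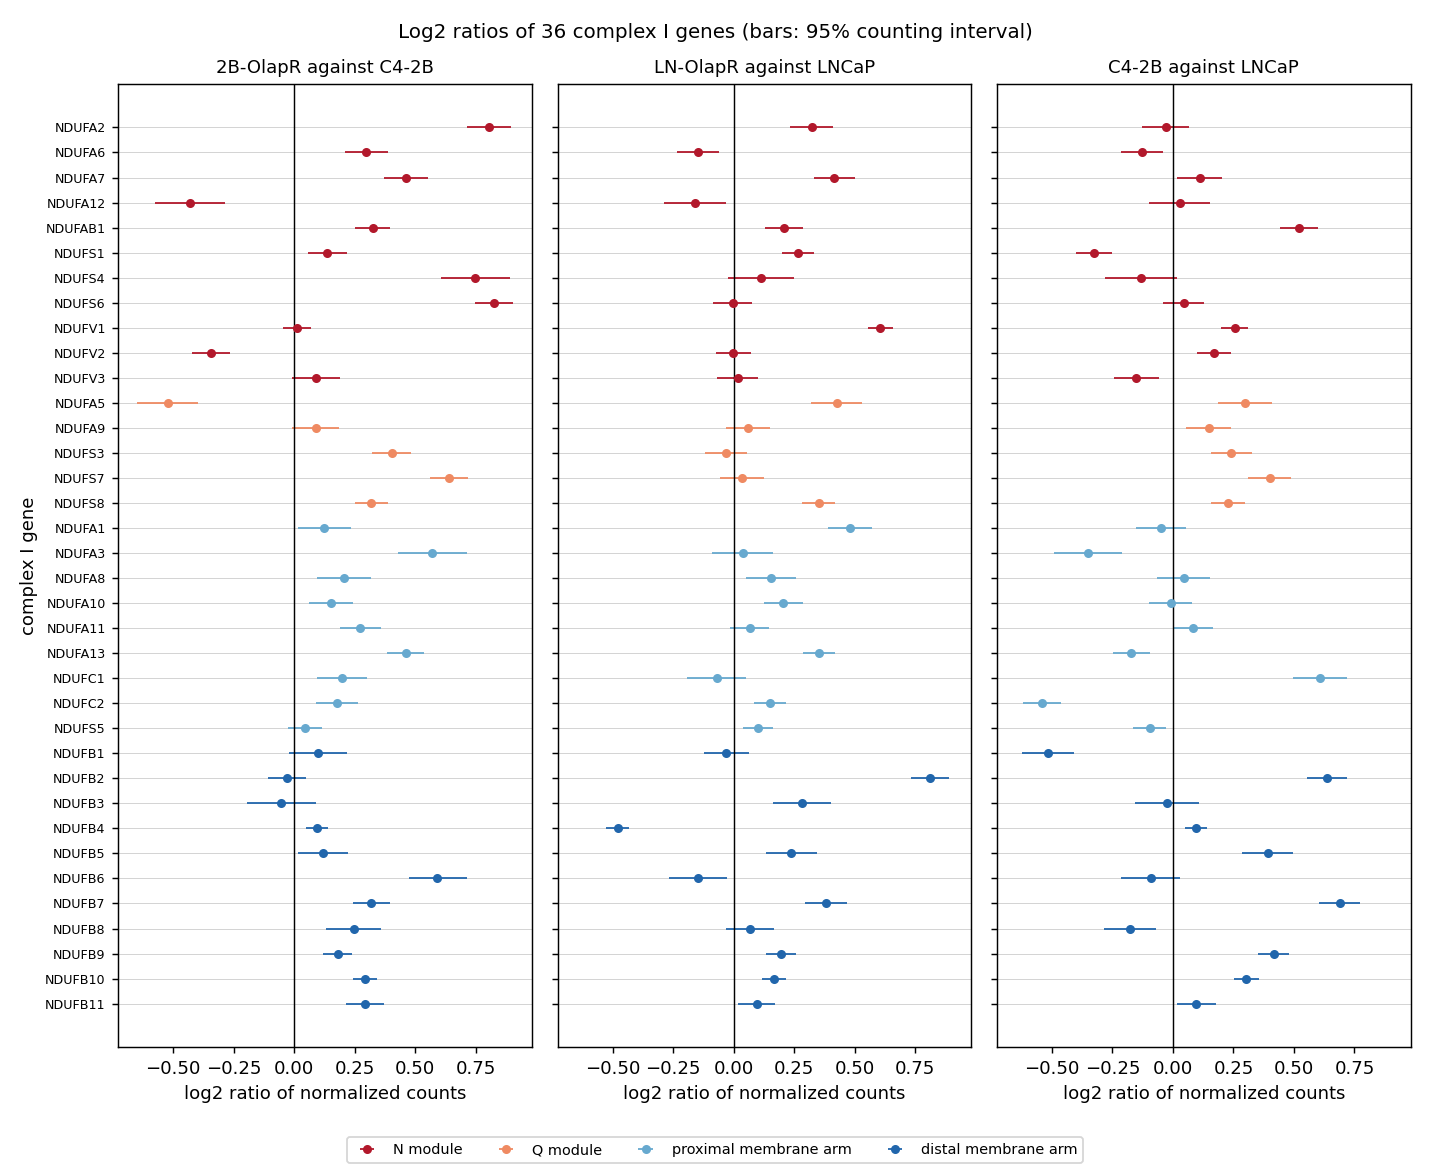
Log2 ratio of normalized counts for 36 complex I genes in 3 comparisons, grouped and coloured by module. Bars are 95% counting intervals from 1 library per line, not replicate error. Most points lie to the right of 0 in the first 2 panels (31 and 27 of 36) and on both sides of 0 in the third panel (21 of 36 higher in C4-2B).

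Both resistant lines were higher than their parental lines for 25 of the 37 members, or 67.6%, against 28.5% of the 14602 genes analyzed in both pairs. Both were lower for 2 members (29.1% of all genes) and the signs were opposite for 10 (42.4% of all genes). At least 1.2-fold higher in both pairs were 5 members, or 13.5%, against 8.65% of all genes. At least 1.2-fold lower in both were 0, against 10.3% of all genes. The pairs share no library. Taken singly, 2B-OlapR exceeded its parental line for 32 of the 37 members and LN-OlapR for 28. With counts this high, most members had to be higher in both, so the count of 25 adds little to them. Whether the same members rose in both lines more often than these counts imply was not tested.

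These 5 genes came from every module. NDUFB7, a cysteine-rich subunit on the intermembrane space side of the distal arm, had 76.6 normalized CPM in LNCaP against 99.8 in LN-OlapR, and 123 in C4-2B against 154 in 2B-OlapR. NDUFA13, also known as GRIM-19 and required for assembly, had 129, 165, 115 and 158. NDUFA7, an accessory subunit of the peripheral arm, had 78.2, 104, 84.4 and 116. For NDUFA13 and NDUFA7 both resistant lines lay above both parental lines, and the same held for NDUFA2 and NDUFS8, whereas for NDUFB7 LN-OlapR lay below C4-2B. The folds of NDUFB7 were 1.25 (2B pair) and 1.30 (LN pair), those of NDUFS8 were 1.25 and 1.28, those of NDUFA2 were 1.75 and 1.25, and those of both NDUFA13 and NDUFA7 were 1.38 in the 2B pair, beside 1.28 and 1.33 in the LN pair. NDUFA5 was the single member at least 1.2-fold apart in opposite directions (10.6% of all genes). It was at 0.70 of the parental level in 2B-OlapR and 1.34 in LN-OlapR.

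Both resistant lines were then set against both parental lines in a fit across 15645 genes (edgeR's quasi-likelihood test with Benjamini–Hochberg adjustment). Lines of different backgrounds stand for replicates in this fit, 2 against 2, and C4-2B descends from LNCaP. None of the 37 members passed an adjusted p of 0.05, with 0 called higher (0% of all genes) and 0 called lower (0%). At an unadjusted p under 0.05 there were 0 members, beside 180 genes higher and 183 lower. With the background of each pair as a block the count of members called was again 0 (0% of all genes). In this blocked edgeR fit 2 members, NDUFA2 and NDUFA7, had an unadjusted p under 0.05, both higher. Beside them stood 625 genes higher and 654 lower of all 15645. NDUFA2 had a log2 ratio of 0.56 in the blocked edgeR fit with an adjusted p of 0.597, the lowest of the members, and was higher in both pairs. DESeq2 called 0 members in either form, beside 28 genes higher and 30 lower without the block.

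C4-2B was then compared with LNCaP, its precursor. Here fewer members were higher than in the 2B and LN pairs, and their median ratio was smaller. In C4-2B 21 of the 37 members were higher, against 48.6% of the 15580 genes analyzed, and the median log2 ratio was 0.04 (quartiles -0.10 and 0.26, and 0.09 without the members on chromosome 5), with intervals above 0 for 17 genes and below 0 for 9. At least 1.2-fold higher were 9 members (30.7% of all genes) and at least 1.2-fold lower were 4 (32.0%). At least 1.5-fold higher were 3 (16.1%), at least 1.5-fold lower were 0 (16.1%), and none was 2-fold apart (15.2%). The Q module had the highest median, 0.23, with 5 of 6 genes higher. The N module had 0.03 (-0.03 without the boundary subunits), the distal membrane arm 0.10 and the proximal membrane arm -0.05, with 3 of 9 genes higher.

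The highest ratios of C4-2B to LNCaP were in the membrane arm. NDUFB7 had a log2 ratio of 0.69 (0.60 to 0.77) and NDUFB2 of 0.64 (0.55 to 0.72). NDUFC1, a single-helix subunit, had 45.7 normalized CPM in LNCaP against 43.5 in LN-OlapR, and 69.6 in C4-2B against 79.8 in 2B-OlapR, a log2 ratio of 0.61 (0.50 to 0.72). The lowest ratios were in the membrane arm as well, which had the wider spread of the arms in this comparison (SD among genes 0.35, against 0.22 in the peripheral arm).

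NDUFC2, which lies beside NDUFC1 in the complex, had 142 normalized CPM in LNCaP against 157 in LN-OlapR, and 97.2 in C4-2B against 110 in 2B-OlapR, a log2 ratio of -0.54 (-0.62 to -0.46). NDUFB1 had 75.6, 74.1, 52.9 and 56.7, a log2 ratio of -0.51 (-0.62 to -0.41). NDUFA3 had 41.3, 42.4, 32.4 and 48.1, a log2 ratio of -0.35 (-0.49 to -0.21). NDUFC1, NDUFC2 and NDUFB1 thus separated the LNCaP background from the C4-2B background, since both lines of one background lay on the same side of both lines of the other. The direction was opposite for NDUFC1 and NDUFC2.

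The resistant lines also differed from each other. Of the 37 members, 21 were higher in 2B-OlapR than in LN-OlapR (49.4% of 15539 genes), with a median log2 ratio of 0.18. At least 1.5-fold higher were 8 (17.8% of all genes) and at least 1.5-fold lower was 1 (20.0%), which was NDUFA5 at -0.65 (-0.77 to -0.53). NDUFS7 was the member that reached 2-fold (18.4% of all genes), at 2.01-fold (log2 interval 0.92 to 1.09). NDUFC1 at 0.88 (0.76 to 0.99) and NDUFS6 at 0.87 (0.80 to 0.95) followed. The comparisons share libraries, so this one adds no independent measurement to those above.

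The 3 highest and 3 lowest members of the 2B pair and of the LN pair sat in chromosome regions whose other genes had a median ratio of the same sign. Positions were taken from GENCODE release 29 on GRCh38, and for each member the median log2 ratio of the other analyzed genes that start within 2 Mb was computed. Over all 37 members the sign was the same for 25 in the 2B pair, 30 in the LN pair and 22 in C4-2B against LNCaP. NDUFS6 (chr5:1801400-1816605, plus strand), NDUFA2 (chr5:140638740-140647785, minus strand) and NDUFS4 (chr5:53560633-53683340, plus strand), the 3 highest genes of the 2B pair, are the 3 members on chromosome 5. Neighbours had medians of 0.58 for NDUFS6 (30 genes, 26 of them higher), 0.40 for NDUFA2 (51 genes, 42 higher) and 0.52 for NDUFS4 (12 genes, 10 higher). Chromosome 5 had the highest median of 23 chromosomes in this comparison, 0.34 over 686 genes, of which 76.7% were higher in 2B-OlapR.

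The low end of the 2B pair looked alike. NDUFA5 (chr7:123536997-123558255, minus strand) had 7 neighbours with a median of -0.76, of which 0 were higher in 2B-OlapR. The neighbours of NDUFV2 (chr18:9102630-9134345, plus strand) had a median of -0.66, with 0 of 12 higher, and chromosome 18 had the lowest median of the chromosomes, -0.41 over 220 genes. Those of NDUFA12 (chr12:94897055-95003770, minus strand) had -0.44, with 2 of 21 higher. In the LN pair the neighbours of NDUFB2 (chr7:140690777-140722790, plus strand) had a median of 0.47 (28 genes, 24 higher), those of NDUFV1 (chr11:67605653-67612554, plus strand) 0.23 (85 genes, 72 higher) and those of NDUFB4 (chr3:120596309-120602500, plus strand) -0.27 (29 genes, 7 higher). NDUFA5 had opposite signs in the pairs and so had its neighbours, at -0.76 in 2B-OlapR against C4-2B and at 0.64 over 6 genes in LN-OlapR against LNCaP. An exception among the extreme members of the other comparisons was NDUFC1 (chr4:139266880-139302551, minus strand), the third highest of C4-2B against LNCaP at 0.61, whose neighbours had a median of -0.09 (21 genes, 10 higher). Between the resistant lines NDUFC1 was at 0.88 and its neighbours at -0.18 (21 genes, 8 higher).

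Across the 37 members, Pearson's r between the ratio of a member and the median ratio of its neighbours was 0.84 in the 2B pair (Spearman's rho 0.73) and 0.75 in the LN pair (rho 0.75), both across genes of the same libraries and therefore a description. For C4-2B against LNCaP, r was 0.43 (rho 0.49). Members that lie close together, such as NDUFV1 and NDUFS8 on chromosome 11, share neighbours. Windows of 1 Mb and 5 Mb gave 0.83 and 0.83 for the 2B pair, and 0.72 and 0.75 for the LN pair. Copy number was not measured in these data, and its part in the regional differences was not tested.

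How often other genes lie above the median of their own neighbours was not computed, and neighbours could have any level past the filter. In the 2B pair 33 of the 37 members lay above the median of their neighbours, by a median of 0.23 on the log2 scale. In the LN pair 29 of 37 lay above, by a median of 0.06, and for C4-2B against LNCaP 21 of 37, by 0.02. The gap between the pairs depended on the window. Set against all other genes of the chromosome, 33 members lay above by a median of 0.17 in the 2B pair, 28 by 0.16 in the LN pair and 26 by 0.10 in C4-2B against LNCaP. NDUFB1 on chromosome 14 is an example. Its neighbours had a median of -0.31 over 28 genes in the 2B pair and the chromosome a median of -0.40, while NDUFB1 itself was at 0.10 (-0.02 to 0.22). Without the 3 members on chromosome 5, 29 of 34 were higher in 2B-OlapR and the median was 0.18.

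**Figure D3:**
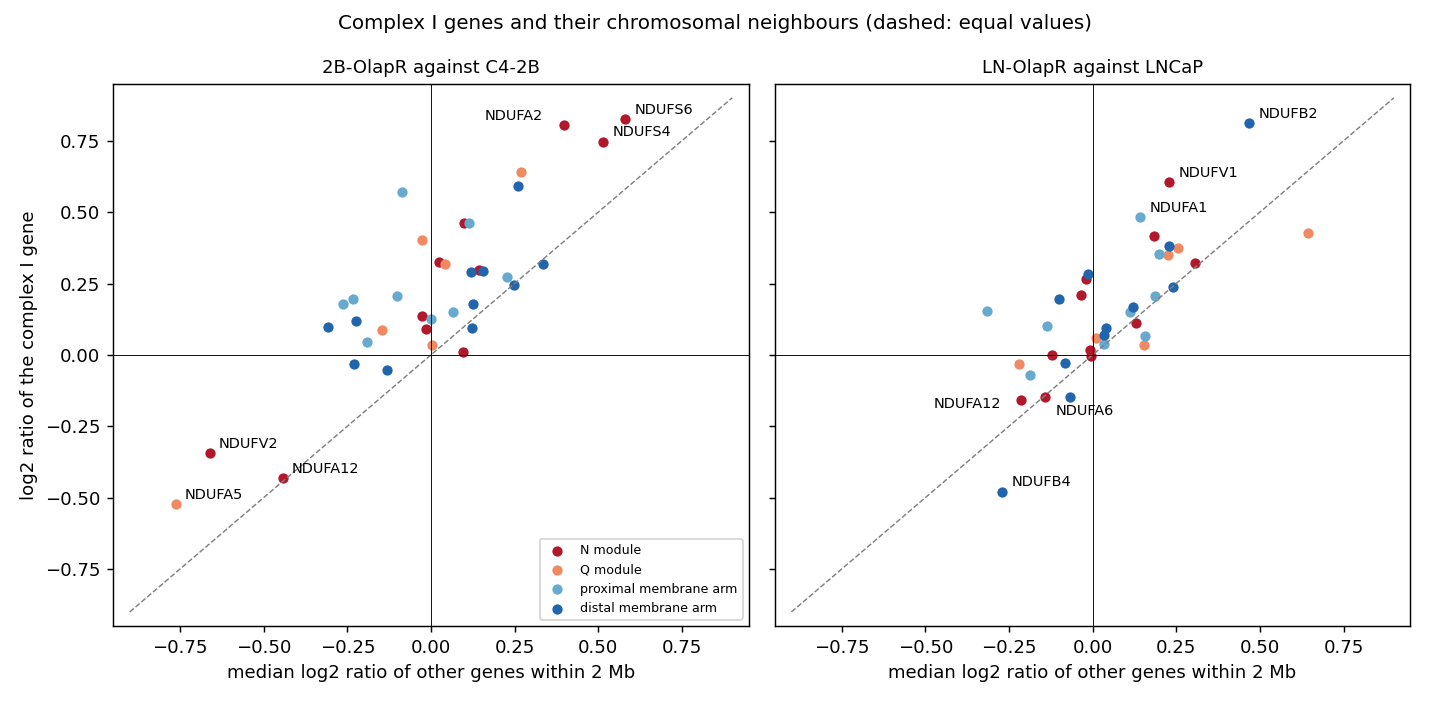
Log2 ratio of each of the 37 complex I genes against the median log2 ratio of the other genes that start within 2 Mb, for the 2B pair (left) and the LN pair (right), coloured by module. The 3 highest and 3 lowest genes of each pair are named, and the dashed line marks equal values. Points follow the line upward, and 33 of 37 lie above it on the left.

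Complex I genes are highly expressed and many of their mRNAs are short, with 22 of 37 having a longest transcript of at most 1500 bases. Genes of that kind in general leaned to the same side. Among the genes other than members whose level lay in the members' range, the median log2 ratio was 0.05 in the 2B pair, with 56.7% of 5038 genes higher, and 0.02 in the LN pair, with 52.8% of 5424 higher. Restricted further to transcripts of at most 1500 bases, the medians were 0.09 (61.9% of 459 genes higher) and 0.11 (67.8% of 451 higher). In C4-2B against LNCaP this group had a median of 0.14, with 66.0% of 500 genes higher, beside 0.04 for the members. The part of transcript length in the members' ratios was not tested further.

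The 7 core subunits of the membrane arm are encoded in mitochondrial DNA, and their mRNAs followed the direction of the nuclear genes in the LN pair but not in the other comparisons. In the 2B pair their median log2 ratio was -0.12, with 3 of 7 higher in 2B-OlapR, beside 0.20 for the nuclear genes. In the LN pair it was 0.40, with 6 of 7 higher, 5 of them at least 1.2-fold, beside 0.15 for the nuclear genes. In C4-2B against LNCaP it was -0.59, with 0 of 7 higher and 4 at least 1.5-fold lower in C4-2B, beside 0.04 for the nuclear genes. The difference was widest between the resistant lines, with a median of -1.09 and 5 of 7 mRNAs at least 2-fold lower in 2B-OlapR.

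MT-ND4 was the most abundant of these mRNAs, with 10492 normalized CPM in LNCaP against 14331 in LN-OlapR, and 7562 in C4-2B against 6123 in 2B-OlapR. In the same order, MT-ND1 had 5324, 9499, 2769 and 2914, MT-ND2 had 4652, 5097, 2741 and 2901, and MT-ND5 had 4616, 6080, 3076 and 2821. MT-ND3 had 758, 684, 444 and 483, MT-ND4L had 738, 944, 547 and 444, and MT-ND6, which is encoded on the other strand, had 798, 1140, 614 and 545. Each of the 7 was higher in both lines of the LNCaP background than in both lines of the C4-2B background. Their share of all counts was 2.79% in LNCaP against 3.63% in LN-OlapR, and 1.82% in C4-2B against 1.62% in 2B-OlapR. For each count of a nuclear subunit there were 7.16 counts of a mitochondrially encoded one in LNCaP against 8.76 in LN-OlapR, and 4.31 in C4-2B against 3.38 in 2B-OlapR. Reads from copies of mitochondrial DNA in the nuclear genome can be included in these counts.

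**Figure D4:**
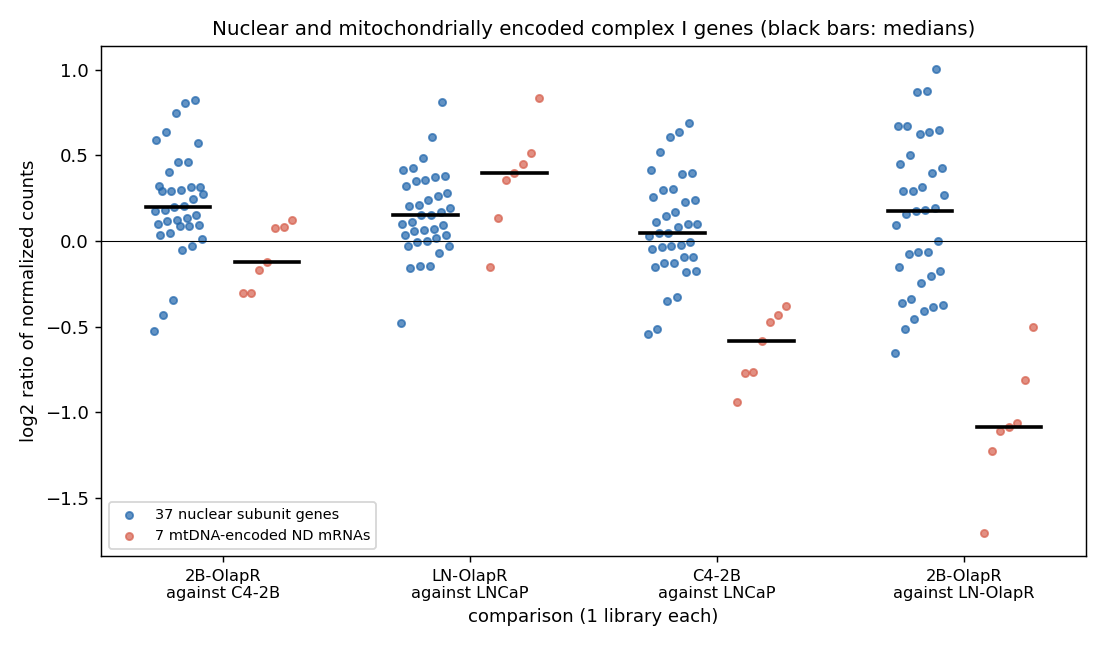
Log2 ratios of the 37 nuclear complex I genes (blue) and the 7 mRNAs of complex I subunits encoded in mitochondrial DNA (red) in 4 comparisons, with 1 library per line. Black bars are medians, and the sideways position of a point within its column carries no value. The medians of the nuclear genes lie between 0.04 and 0.20, whereas those of the mitochondrially encoded mRNAs lie between -1.09 and 0.40.

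Genes of the other complexes are given for comparison. The 19 listed assembly factors of complex I, which build the complex without remaining in it, had medians of 0.10 in the 2B pair (13 higher), 0.00 in the LN pair (10 higher) and -0.00 in C4-2B against LNCaP (9 higher). The 9 nuclear subunits of complex III had 0.18 (8 higher), 0.22 (7 higher) and 0.35 (8 higher). The 10 of complex IV had 0.13 (9 higher), 0.18 (9 higher) and 0.17 (8 higher), and the 18 of ATP synthase 0.14 (15 higher), 0.10 (14 higher) and 0.10 (12 higher). The complex I medians of the 2B and LN pairs thus lay near those of the other OxPhos complexes.

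NDUFA4 and its paralog NDUFA4L2 were described apart. NDUFA4 had 99.0 normalized CPM in LNCaP against 87.6 in LN-OlapR, and 70.5 in C4-2B against 53.1 in 2B-OlapR, with log2 ratios of -0.41 (-0.52 to -0.30) in the 2B pair, -0.18 (-0.26 to -0.09) in the LN pair and -0.49 (-0.58 to -0.40) in C4-2B against LNCaP. It was lower in each resistant line than in its parental line, unlike most complex I genes. Reads can be shared with NDUFA4P1, which had 286 counts in LNCaP against 213 in LN-OlapR, and 208 in C4-2B against 160 in 2B-OlapR, or 10.4% to 14.5% of those of NDUFA4. NDUFA4L2, known as a target of hypoxia-inducible factors, had 65 counts in LNCaP against 81 in LN-OlapR, and 90 in C4-2B against 23 in 2B-OlapR, with log2 ratios of -1.96 (-2.71 to -1.31) against C4-2B and 0.52 (0.03 to 1.02) against LNCaP for the respective resistant lines.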

How the data were processed

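The authors prepared stranded mRNA libraries from 100 ng of RNA and deposited estimated counts per gene, not scaled between libraries. The submitters' processing notes name STAR, Partek and the GRCh38 (hg38) build. The tool that estimated the counts, its annotation and its strand setting are not given in the sources used here. Each of the 22637 rows sums to at least 10 over the 4 libraries. No column of another sample was present.

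Estimates were rounded to whole counts and scaled with TMM factors (R 4.3.3, edgeR 4.0.16). Ratios and intervals were computed in Python 3.11.15 with pandas 2.3.3 and SciPy 1.17.1. Log2 ratios used a pseudocount of 0.5. A gene entered a comparison if both libraries averaged 1 normalized CPM or more. Intervals of ratios are exact (Clopper–Pearson on the share of 1 library in the sum of both counts), intervals of shares are Wilson intervals, and all cover counting error at the 95% level. Depth limits precision little for the subunit genes. Each cell line has 1 library, so differences between 2 lines were not tested. Resistant and parental lines (2 libraries each) were compared with edgeR's quasi-likelihood test on genes that averaged 1 normalized CPM or more across the 4 libraries. The calculations were tested on simulated data with changes larger than those of any member. Recovery of changes as small as those of the members was not tested. Gene positions and lengths came from GENCODE release 29 and promoter sequences from RefSeq.

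Genes named by rule, with values in every library, were the core subunits, the 3 highest and 3 lowest ratios of each pair and of C4-2B against LNCaP, members at least 1.2-fold apart in both pairs, the 3 highest and 3 lowest levels per length, NDUFA4, NDUFA4L2, the 7 mitochondrially encoded mRNAs and pseudogenes with at least 1 normalized CPM. NDUFB6, NDUFB3, NDUFV3 and NDUFAB1 fall outside this rule and were named after their values were seen. One gene under the rule is not reported here by name, though it is counted among the members. The members, the lists and the rule were chosen with earlier results of these data known. Alternatives were scaling by total counts, DESeq2 1.42.0 size factors or upper quartile factors, a pseudocount of 2, no filter or a filter of 10 normalized CPM, pseudogene counts added to members, NDUFA4 included, boundary subunits left out and other transcript lengths. Leaving out chromosome 5, the other neighbour windows and the test of resistant against parental lines (with its block, DESeq2 and left-out libraries) were added after seeing the data.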

Additional observations from a re-analysis of the deposited data

Results flagged for a closer look

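NDUFA5 was at least 1.2-fold apart in opposite directions in the resistant pairs, with a log2 ratio of -0.52 for 2B-OlapR against C4-2B and 0.43 for LN-OlapR against LNCaP. MT-ND4 had log2 ratios of -0.30 and 0.45, and MT-ND4L of -0.30 and 0.35, in the same order. With 1 library per line the difference between the pairs was not tested for any of these genes.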

How the results depend on the processing

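Under the alternatives tried, no count of members higher moved by 1.5 times or more, and the median of all members kept its sign in each comparison. With counts scaled by library totals, 30 members were higher in the 2B pair with a median of 0.15, and 22 in the LN pair with a median of 0.07. That scaling shifted all log2 ratios by -0.04 in the 2B pair and by -0.08 in the LN pair. Module medians depended on the 5 boundary subunits. Without them the N module turned from 0.03 to -0.03 in C4-2B against LNCaP and from 0.16 to -0.08 between the resistant lines. Among single genes, correlations and levels, 27 values moved and 599 did not. Ratios and correlations counted as moved if they left their interval, and levels per length if they passed a set relative change. Most of those that moved were ratios of the LN pair scaled by totals. With all other genes of a chromosome in place of neighbours within 2 Mb, r was 0.76 for the 2B pair, 0.56 for the LN pair and 0.26 for C4-2B against LNCaP. In the edgeR test of resistant against parental lines the count of members called was 0, and it was 0 with the background of each pair as a replicate block, 0 with each of the 4 libraries left out in turn, and 0 with DESeq2 with or without the block. Over all genes edgeR called 0 with and without the block, whereas DESeq2 called 28 higher and 30 lower without the block and 78 higher and 87 lower with it. The cause of that difference between the tools was not tested. No library could be left out of a difference between 2 lines.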
